A study of Homo sapiens with 4 samples.

Results

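The transcripts of MYBL2, FOXM1, 6 E2F genes (E2F1, E2F2, E2F3, E2F4, E2F7 and E2F8), LIN9 and RBL1 were examined in MHCC97H cells, an established human hepatocellular carcinoma line, after knockdown of UBXN1. These 10 genes are 10 of the 61541 Ensembl genes in the count table, and all 10 were among the 16863 genes that passed a filter on low counts. MYBL2 was selected on its large fall in the UBXN1-knockdown cells, so its values describe the choice and are given without a test. The other 9 were listed together with MYBL2, in a list made with earlier results of these libraries known. This part of the study compared transcripts between control cells and cells depleted of UBXN1, a ubiquitin regulatory X domain protein. Total RNA was sequenced from 2 libraries of control cells (shCon, genotype control) and 2 of knockdown cells (shUBXN1). By the methods, shRNAs were delivered in a lentiviral vector, and the control is named shRFP there but shCon in the labels. Which UBXN1 shRNA was sequenced, and whether the cells were a pool or a clone, is not given in the sources used here. Nothing in the labels says that the replicates were separate cultures, so p-values measure the spread between these libraries, which may be technical.

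E2F proteins bind the promoters of genes for DNA synthesis. E2F1, E2F2 and E2F3 are known as activators, E2F4 and E2F5 act mainly as repressors together with the pocket proteins encoded by RBL1 and RBL2, and E2F7 and E2F8 repress without a pocket protein. LIN9 belongs to the MuvB core, a protein complex that represses cell cycle genes in resting cells when joined by E2F4 and a pocket protein. In dividing cells the same core binds MYBL2 and then FOXM1 and activates genes for mitosis. Quiescent hepatocytes express little MYBL2 and FOXM1, and both are induced when liver cells enter the cell cycle.

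Short stretches before the transcription starts are shown because several of these genes are themselves known targets of E2F proteins. RefSeq promoters (GRCh38.p14) were at hand for 8 of the 10 genes, with 2 starts for E2F3 and 3 for LIN9, while FOXM1 and E2F8 had no entry. The 250 bases before each start were searched on both strands for TTTCCCGC, TTTGGCGC and TTTCGCGC. At least 1 of these words stood before 4 of the 11 starts, those of E2F1, E2F2, E2F3 (1 of 2) and RBL1, against 2.32% of all 35116 promoters in the table. The MYBL2 promoter held none of them but held the shorter word GGCGGGA, which was searched for after that sequence had been seen and which also overlaps the first word. GGCGGGA stood before 6 of the 11 starts of these genes, those of MYBL2, from which it was picked, E2F1, E2F3 (both), LIN9 (1 of 3) and RBL1, and in 13.5% of all promoters. The MYBL2 stretch lies before the RefSeq start but inside the gene as GENCODE release 44 places it, whose start is further upstream. In each 30-base stretch, written in the direction of the gene, capitals mark the word.
MYBL2, chr20:43667064-43667093, plus strand: ccgacgcgcttGGCGGGAgatagaaaagtg
E2F1, chr20:33686387-33686416, minus strand: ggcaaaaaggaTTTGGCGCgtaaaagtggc
E2F2, chr1:23531257-23531286, minus strand: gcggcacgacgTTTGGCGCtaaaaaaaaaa
E2F3, chr6:20401815-20401844, plus strand: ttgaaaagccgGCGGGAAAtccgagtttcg
RBL1, chr20:37096000-37096029, minus strand: gcagatTTTCGCGCgcTTTGGCGCaggtgg
The E2F1 word ended 13 bases before the start, the E2F2 word ended 35 bases before it, and RBL1 held 2 words close together. In E2F3 the capitals read on the opposite strand as TTTCCCGC. The cell cycle homology word TTTGAA stood before 1 of the 11 starts (E2F3) against 13.3% of all promoters, and CCAAT before 3 (E2F1, E2F3 and E2F7) against 32.0%. E2F4 and E2F7 held none of the E2F words in this window, which says only that these letters are not there.

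The libraries held between 23373700 and 27380508 expected counts. UBXN1 itself had 1788 and 1817 counts in shCon and 416 and 433 in shUBXN1. The share of counts on the mitochondrial genome was 5.28% and 5.59% in shCon and 7.43% and 8.27% in shUBXN1, and its part in the results was not tested. Of 14 hepatocyte and liver cancer markers, 11 exceeded 1 CPM (counts scaled to library size) in all 4 libraries, among them HNF4A and ALB, while GPC3 had 0 counts in every library. Their summed level was 4598 to 4760 CPM in shCon and 3535 to 4134 CPM in shUBXN1, and without the keratin genes KRT8 and KRT18, which make up most of it, 344 to 349 CPM and 161 to 172 CPM. At an adjusted p under 0.05, 9 of the 13 tested were lower and 2 higher, where 28.2% of all genes tested were lower and 28.0% higher. Of the 9, 6 were at least 2-fold lower, a call made for 6.09% of all genes tested. ALB stood at 25.6% and HNF4A at 81.4% of its shCon level. Of 13 markers of leukocytes, endothelium and fibroblasts, 5 were above 1 CPM in all libraries, with a sum of 172 to 182 CPM in shCon and 204 to 212 CPM in shUBXN1. Among the 8 of them that were tested, 3 were lower and 4 higher at an adjusted p under 0.05. CD3E had 0 counts throughout, PTPRC at most 4, CDH5 at most 6 and PDGFRB at most 7 in any library, whereas CD68, CD79A, PECAM1, KDR and LUM were well detected. KDR went from 389 and 371 counts in shCon to 1192 and 1324 in shUBXN1, CD79A from 216 and 251 to 532 and 513, COL1A1 from 10 and 4 to 58 and 59, and LUM from 844 and 758 to 345 and 390. The part of these shifts in the results was not tested.

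For all 10 genes, each shUBXN1 library lay below each shCon library, as for 38.6% of all genes tested. MYBL2 lost the most, followed by E2F4, E2F2, E2F8, E2F7, E2F1 and FOXM1, whereas LIN9, RBL1 and E2F3 fell less. In edgeR's quasi-likelihood test the 9 genes other than MYBL2 were all lower at a Benjamini-Hochberg adjusted p under 0.05, a call made for 28.2% of all genes tested. At a fold change of at least 2 and an unadjusted p under 0.05, the thresholds of the study's methods, 5 of those 9 were lower (E2F1, E2F2, E2F4, E2F7 and E2F8) against 6.09% of all genes tested. None of the 10 was higher by either call. The 9 had a median log2 fold change of -1.04, beside 0.016 for all genes tested. In bulk RNA, fewer cells carrying a transcript and less of it in each cell cannot be told apart.

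**Figure D1:**
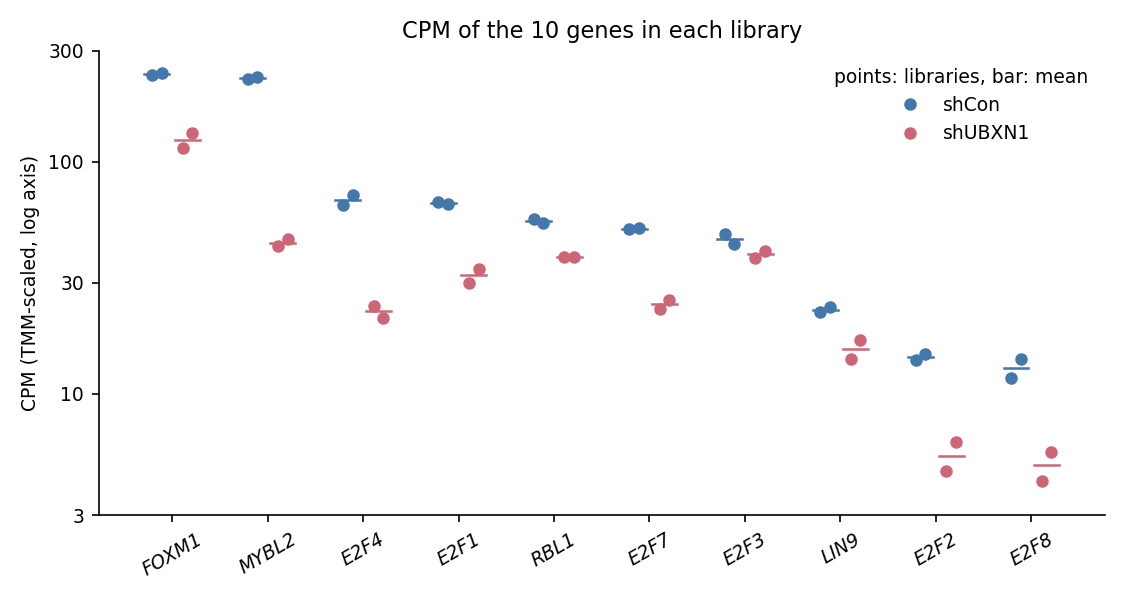
CPM of the 10 genes on a log axis, with 1 point per library (blue, shCon; red, shUBXN1) and a bar at the mean of each group. The shUBXN1 points lie below the shCon points for every gene, by the widest gap for MYBL2 (229 to 44.7 CPM) and the narrowest for E2F3 (46.4 to 39.8 CPM).

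MYBL2 (ENSG00000101057) encodes B-MYB, the partner that turns the MuvB core into an activator. The gene lies on the plus strand of chromosome 20 from 43667019 to 43716495 (GENCODE release 44 on GRCh38), and no other annotated gene overlaps its exons. MYBL2 was abundant in shCon, with 6053 and 5447 counts, and had 1068 and 1084 counts in shUBXN1. In CPM the level was 227 and 232 CPM in shCon and 43.2 and 46.3 CPM in shUBXN1, so replicates lay close together and the groups far apart. The shCon mean was 229 ± 3.42 CPM (SD, n = 2) and the shUBXN1 mean 44.7 ± 2.23 CPM (SD, n = 2), which left 19.5% of the control level. On the log2 scale the change was -2.36, with a standard error (SE) of 0.0780. A larger fall was seen in 129 of the 16863 genes tested (0.765%), or in 40 of the 11993 with a mean log2 CPM above 2 (0.334%).

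Among genes of that expression, those with a pattern across the 4 libraries most like MYBL2 were A1CF, STRADB, PAK4, AGR2 and LAD1. Likeness was the Euclidean distance between log2 CPM values centred on each gene's mean, over 4 libraries and 11992 candidate genes, and it was 0.0187, 0.0365, 0.0401, 0.103 and 0.115. A1CF is the APOBEC1 complementation factor, STRADB a pseudokinase, PAK4 a kinase, AGR2 a protein disulfide isomerase and LAD1 an anchoring filament protein. Their log2 fold changes were -2.37, -2.42, -2.33, -2.44 and -2.27, which lie near that of MYBL2 by the way they were chosen. None of the 5 stands in the cell cycle lists described here.

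FOXM1 (ENSG00000111206, chromosome 12, minus strand, 2857680 to 2877174) encodes the forkhead factor that follows B-MYB on the MuvB core. It had 6310 and 5657 counts in shCon and 2836 and 3094 in shUBXN1. The shCon libraries held 237 and 241 CPM and the shUBXN1 libraries 115 and 132 CPM, without overlap. FOXM1 fell to 51.7% of its control level, with a log2 fold change of -0.95 (SE 0.0816, adjusted p = 2.5e-07). The antisense gene ITFG2 covers 15.9% of the exon bases of FOXM1. ITFG2 had 701 and 682 counts in shCon and 565 and 547 in shUBXN1, and strand use in the counting is not given in the sources used here.

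Of the activating E2Fs, E2F1 and E2F2 fell at least 2-fold, and E2F3 fell by far less. E2F1 (ENSG00000101412, chromosome 20, minus strand, 33675477 to 33686385) had 66.9 and 65.9 CPM in shCon and 30.1 and 34.5 CPM in shUBXN1. Its log2 fold change was -1.04 (SE 0.0852, adjusted p = 1.61e-07). It fell short of 2-fold without the first shUBXN1 library (-0.95), with total count scaling (-0.96) and with limma on log2(TPM + 1) (-0.96). E2F2 (ENSG00000007968, chromosome 1, minus strand, 23506438 to 23531233) is the least abundant of the activators, with 372 and 348 counts in shCon and 115 and 145 in shUBXN1. That is 14.0 and 14.8 CPM against 4.65 and 6.19 CPM, a log2 fold change of -1.41 (SE 0.161, adjusted p = 4.28e-06). E2F3 (ENSG00000112242, chromosome 6, plus strand, 20401879 to 20493714) stood at 48.8 and 44.01 CPM in shCon and 38.3 and 41.4 CPM in shUBXN1. The groups did not overlap, but their nearest libraries lay closer together than the shCon replicates did. Its log2 fold change was -0.22 (SE 0.0860, adjusted p = 0.0401), and the call was lost in 7 of 12 alternative settings, with adjusted p between 0.00792 and 0.36 over all 12. Without the first shCon, the second shCon or the first shUBXN1 library it did not pass, at log2 fold changes of -0.14, -0.31 and -0.17. E2F3 has 2 promoters with separate products, which gene-level counts do not tell apart.

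E2F4, the main partner of the pocket proteins in the repressive complex, had the largest fall among the E2Fs. E2F4 (ENSG00000205250, chromosome 16, plus strand, 67192155 to 67198918) had 1736 and 1688 counts in shCon and 593 and 498 in shUBXN1. The levels were 65.1 and 71.9 CPM against 24.0 and 21.3 CPM, so that E2F4 kept 33.0% of its control level. This is a log2 fold change of -1.60 (SE 0.0908, adjusted p = 4.85e-09). A larger fall than that of E2F4 was seen in 350 of the 16863 genes tested (2.08%).

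The atypical repressors E2F7 and E2F8 fell as well. E2F7 (ENSG00000165891, chromosome 12, minus strand, 77021248 to 77065569) had 51.5 CPM in both shCon libraries and 23.1 and 25.4 CPM in the shUBXN1 libraries. Its log2 fold change was -1.09 (SE 0.0862, adjusted p = 1.18e-07), which fell short of 2-fold with limma on log2(TPM + 1) (-0.95). E2F8 (ENSG00000129173, chromosome 11, minus strand, 19224063 to 19241620) is of low abundance, with 311 and 333 counts in shCon and 104 and 132 in shUBXN1. In CPM these were 11.7 and 14.2 against 4.202 and 5.64, a log2 fold change of -1.39. The SE of E2F8 was 0.177, the largest among the 10 genes (adjusted p = 1.23e-05).

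LIN9 and RBL1 fell less than 2-fold. LIN9 (ENSG00000183814, chromosome 1, minus strand, 226231149 to 226309869) encodes the MuvB subunit that holds the core together. It stood at 22.5 and 23.6 CPM in shCon and 14.1 and 17.0 CPM in shUBXN1, a log2 fold change of -0.56 (SE 0.116, adjusted p = 0.000815). RBL1 (ENSG00000080839, chromosome 20, minus strand, 36996349 to 37095997) encodes the pocket protein p107, itself a known E2F target. RBL1 had 56.5 and 54.4 CPM in shCon and 38.8 CPM in both shUBXN1 libraries. Its log2 fold change was -0.51 (SE 0.0777, adjusted p = 6.12e-05). Processed pseudogenes of these genes and their partners, 17 in the table, had at most 9 counts in any library.

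The order of abundance, read per gene length in TPM (transcript shares corrected for length, computed from the deposited counts and gene lengths), changed at the top. In shCon MYBL2 led with 173 and 172 TPM, ahead of FOXM1 with 139 and 137 TPM. In shUBXN1 FOXM1 led with 71.5 and 76.6 TPM, and MYBL2 had 35.1 and 34.9 TPM. This change at the top follows from the fall by which MYBL2 was picked. It also rests on the gene lengths, since in CPM FOXM1 was already above MYBL2 in shCon (237 and 241 against 227 and 232). E2F4 stood above E2F1 in both shCon libraries (62.8 and 67.3 against 50.6 and 48.4 TPM). In shUBXN1 the values of E2F4 (24.6 and 20.3 TPM) and E2F1 (24.3 and 25.8 TPM) overlapped. RBL1, E2F3 and E2F7 were close to each other in shCon, with means of 19.6, 18.5 and 18.0 TPM and overlapping values for E2F3 with each of the others. In shUBXN1 E2F3 (16.5 TPM in both libraries) stood above RBL1 (14.8 and 13.7 TPM), and E2F7 (8.75 and 8.93 TPM) overlapped LIN9 (8.57 and 9.62 TPM). E2F8 and E2F2 were the lowest in both groups, with means of 7.35 and 5.55 TPM in shCon and 2.91 and 2.17 TPM in shUBXN1.

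Partners of these factors were taken from a list of 13 genes written by role. Of these partners, 7 rose and 4 fell at an adjusted p under 0.05, where 28.0% of all genes tested rose and 28.2% fell. The falls thus lay near the share of all genes tested. Both this list and that of the 10 genes were made with earlier results known. A difference between the lists may therefore follow from how genes were placed in them. Without the second shCon library 3 partners passed as higher. At a fold change of 2, LIN37 was higher (a call made for 11.8% of all genes) and RBBP4 and MYB were lower (6.09% of all genes). LIN37 fell short of 2-fold without the first shCon library (0.93) and without the first shUBXN1 library (0.998). The partners had a median log2 fold change of 0.33, or 0.19 without the second shUBXN1 library.

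The remaining E2Fs moved against the members of their family. E2F5, the close relative of E2F4 that also binds pocket proteins, rose from 15.7 and 13.2 CPM to 19.6 and 19.3 CPM (log2 fold change 0.43, SE 0.118, adjusted p = 0.00683). E2F6, a repressor that works with polycomb proteins, rose from 25.4 and 23.7 CPM to 30.9 and 33.0 CPM (log2 fold change 0.38, SE 0.0930, adjusted p = 0.00305). Both calls were lost without the second shCon library, where the log2 fold changes were 0.29 and 0.31. Of the exon bases of E2F5, 18.8% are also covered by antisense genes. The neighbour RBIS, which makes up most of that overlap, had 1453 and 1401 counts in shCon and 878 and 859 in shUBXN1. Of the dimerization partners of E2Fs, TFDP1 had a log2 fold change of -0.21 (adjusted p = 0.04) and TFDP2 of -0.24 (adjusted p = 0.0449). These calls were lost in 7 and 8 of 12 alternative settings, and without one library the values ranged from -0.32 to -0.12 for TFDP1 and from -0.30 to -0.19 for TFDP2.

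As a share of the summed TPM of E2F1 to E2F8, E2F4 went from 32.1% and 35.0% in shCon to 20.3% and 17.3% in shUBXN1. E2F5 went from 8.31% and 6.90% to 17.9% and 16.8%, and E2F6 from 8.17% and 7.54% to 17.1% and 17.5%. E2F3 held 10.1% and 8.99% in shCon and 13.6% and 14.1% in shUBXN1. E2F1 held 25.8% and 25.2% in shCon and 20.04% and 22.0% in shUBXN1. The sum itself was 196 and 192 TPM in shCon and 121 and 118 TPM in shUBXN1. The E2F pool was therefore smaller in shUBXN1 and held a larger share of E2F3, E2F5 and E2F6. The shares were not tested.

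**Figure D2:**
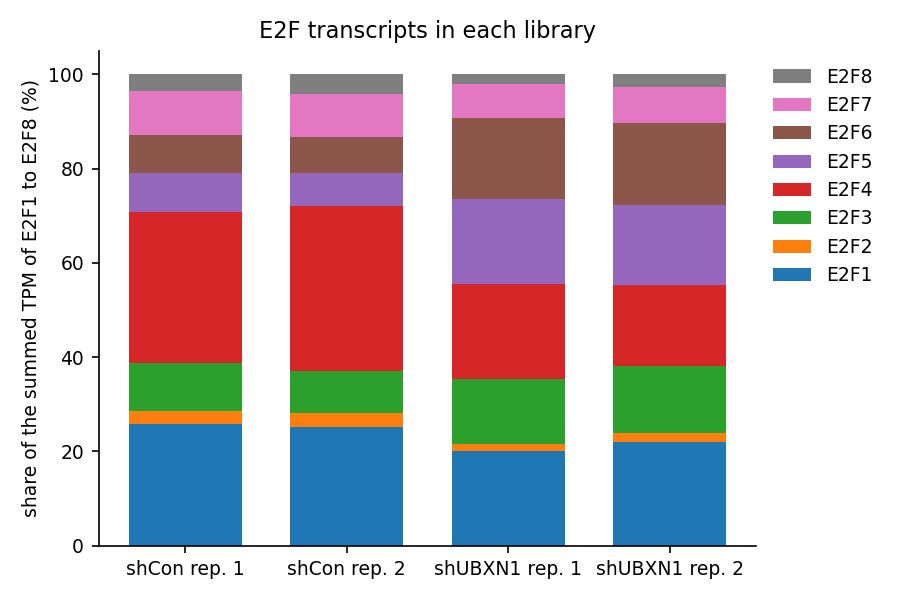
Share of each of the 8 E2F genes in their summed TPM, in percent, with 1 stacked bar per library. In the 2 shUBXN1 bars the E2F4 segment is smaller (mean 18.8% against 33.5%) and the E2F5 and E2F6 segments are larger (17.4% against 7.61%, and 17.3% against 7.85%).

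The MuvB core genes moved apart. RBBP4, the histone-binding subunit that also serves other chromatin complexes, fell from 136 and 133 CPM in shCon to 46.4 and 49.0 CPM in shUBXN1. Its log2 fold change was -1.49 (SE 0.0749, adjusted p = 1.67e-09), and the antisense gene SYNC, which covers 22.8% of its exon bases, had at most 74 counts in any library. LIN54, the DNA-binding subunit, stood at 24.7 and 22.2 CPM in shCon and 23.8 and 25.0 CPM in shUBXN1, with overlapping groups (log2 fold change 0.06, SE 0.0996, adjusted p = 0.654). LIN52, the subunit whose phosphorylation by DYRK1A favours the repressive complex, rose with a log2 fold change of 0.52 (SE 0.168, adjusted p = 0.0164). The LIN52 call was lost in 4 of 12 alternative settings, 2 of which left out a library (0.43 without the second shCon library and 0.36 without the first shUBXN1 library). LIN37 had 158 and 160 counts in shCon and 325 and 298 in shUBXN1, a log2 fold change of 1.02 (SE 0.147, adjusted p = 3.85e-05). Other genes cover 26.7% of its exon bases on the same strand and 41.8% on the opposite strand, so the value of LIN37 is uncertain. DYRK1A, the kinase of LIN52, rose from 66.6 CPM in both shCon libraries to 76.8 and 91.0 CPM (log2 fold change 0.33, SE 0.0859, adjusted p = 0.00435). Without the second shCon library the DYRK1A call was lost, at 0.32, and without the second shUBXN1 library it held at 0.19.

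Of the other pocket protein genes, RBL2 was lower without passing the test and RB1 rose. RBL2, which encodes p130, had 77.8 and 74.7 CPM in shCon and 69.1 and 68.0 CPM in shUBXN1. Its log2 fold change of -0.15 (SE 0.0732) did not pass the test (adjusted p = 0.09), and antisense genes, AKTIP among them, cover 16.4% of its exon bases. AKTIP had 258 and 299 counts in shCon and 625 and 583 in shUBXN1. RB1, the retinoblastoma gene, was low and rose from 149 and 126 counts in shCon to 260 and 207 in shUBXN1, a log2 fold change of 0.82 (SE 0.167, adjusted p = 0.000779). The other MYB genes moved in opposite directions. MYB was scarce and fell from 99 and 101 counts to 36 and 29 (log2 fold change -1.57, SE 0.292, adjusted p = 0.00038), whereas MYBL1 rose from 28.8 and 28.0 CPM to 38.2 and 37.8 CPM (log2 fold change 0.42, SE 0.0849, adjusted p = 0.000738).

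**Figure D3:**
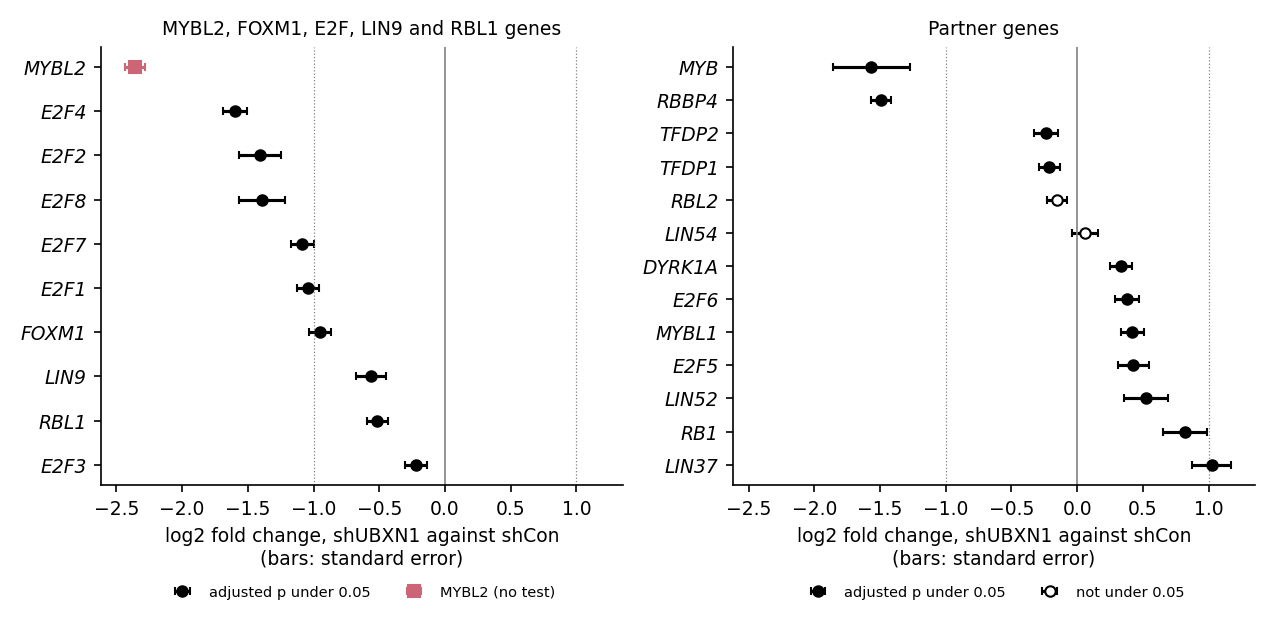
Log2 fold changes of the 10 genes (left) and of 13 partner genes (right) in shUBXN1 against shCon, with bars for the standard error, filled points for an adjusted p under 0.05 and a square for MYBL2, for which no test is given because it was picked for its fall. The left panel runs from -2.36 (MYBL2) to -0.22 (E2F3), while the right panel runs from -1.57 (MYB) to 1.02 (LIN37), and dotted lines mark a 2-fold change.

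Within single libraries, MYBL2 became scarcer relative to each partner of the core that was compared. Per gene length, MYBL2 was 5.31 and 5.64 times as abundant as RBL2 in shCon and 1.14 and 1.24 times in shUBXN1. Relative to RBL1 the ratio was 8.57 and 9.09 in shCon and 2.37 and 2.54 in shUBXN1. Relative to LIN9 it was 13.5 and 13.1 in shCon and 4.09 and 3.63 in shUBXN1. For each of the 3 ratios the groups did not overlap, which follows from the fall of MYBL2 by which it was picked.

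Genes that these factors are known to drive were counted in 2 lists written by role, overlapping in content with a cell cycle list whose fall was already known. Of 30 genes bound by E2Fs at entry into S phase, 25 fell, 1 rose and 4 did not pass the test (28.2% of all genes tested fell and 28.0% rose). Of these, 10 fell at least 2-fold (6.09% of all genes tested), and the median log2 fold change was -0.76. RRM2, a subunit of ribonucleotide reductase, fell from 135 and 134 CPM to 54.3 and 64.3 CPM (log2 fold change -1.18, SE 0.0850, adjusted p = 4.6e-08). MCM2, part of the replicative helicase, fell from 260 CPM in both shCon libraries to 149 and 166 CPM (log2 fold change -0.72, adjusted p = 2.27e-06). The licensing factor CDC6 had a log2 fold change of -0.67 (adjusted p = 1.89e-05) and the thymidylate synthase gene TYMS of -0.34 (adjusted p = 0.00363). The gene that rose was CCNE1, which encodes cyclin E1 and is a classic E2F target. It went from 18.3 and 20.2 CPM to 24.9 and 30.1 CPM (log2 fold change 0.51, SE 0.112, adjusted p = 0.00135). Its relative CCNE2 had 13.1 and 16.4 CPM in shCon and 12.7 and 14.2 CPM in shUBXN1, with overlapping groups (log2 fold change -0.13, SE 0.135, adjusted p = 0.431).

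Of 31 genes that the MuvB core activates in G2 and mitosis with MYBL2 and FOXM1, 28 fell (28.2% of all genes tested), none rose and 3 did not pass the test, with a median log2 fold change of -0.66. By the 2-fold call 7 were lower (6.09% of all genes tested), and 3 with total count scaling or with limma on log2(TPM + 1). CCNB1, the mitotic cyclin B1, fell from 158 and 149 CPM to 60.8 and 66.0 CPM (log2 fold change -1.28, SE 0.0772, adjusted p = 8.72e-09). Its kinase CDK1 had a log2 fold change of -1.18 and CCNA2, cyclin A2, of -1.07. PLK1 and AURKA, kinases of mitotic entry and the spindle, stood at -0.84 and -0.91, and BIRC5, the survivin gene, at -0.87. In each of these 6 genes both shUBXN1 libraries lay below both shCon libraries, as in 38.6% of all genes tested. The adjusted p of these 6 was at most 3.29e-06. The fall of MYBL2 was larger than that of any gene in either target list.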

How the data were processed

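The authors sequenced paired ends and aligned the reads with HISAT2. The methods name GRCh38, whereas the submitters' processing notes name GRCh37, HISAT2 2.0.4 and StringTie 1.3.0. The authors deposited a table of expected counts (not whole, unnormalized) with a length for each gene. The counting tool, the annotation and strand use are not given in the sources used here. Of 61541 gene IDs, 61369 matched a symbol. Positions are those of GENCODE release 44 on GRCh38, since the table holds none.

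Counts were rounded, filtered with filterByExpr, scaled with TMM and tested across 16863 genes with glmQLFit and glmQLFTest in edgeR 4.0.16 (R 4.3.3), all 4 libraries, no block, Benjamini-Hochberg adjustment. Standard errors were derived from the F statistic (the estimate over root F). The test was tried on simulated data. With 2 libraries per group it had 2 residual degrees of freedom per gene. Its variance estimates also draw on all genes tested, so each p-value rests on more than that gene's own replicate spread. Replicates differed by more than sampling noise (chi-square per degree of freedom 3.65 in shCon and 7.77 in shUBXN1), so none was taken for a library deposited in duplicate. The labels do not say whether libraries with the same replicate number were prepared in pairs.

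The members and lists were chosen with earlier results of these data known. Genes named as results are the 10, all 13 partners, 16 target and G1 genes fixed by role, and the 5 nearest to MYBL2. UBXN1, cell type markers, overlapping genes and CCND2 are named as checks. The markers given with counts, and KIF11 in the closing section, were chosen after their values were seen. One gene of the lists is not reported by name here. Alternatives were DESeq2 1.42.0, limma 3.58.1 (voom, and on log2(TPM + 1)), total count scaling, other filters, a fold change of 1.5, a replicate block, leaving out each library and, added after seeing the data, removal of each library's GC trend (16830 of 16863 genes had a GC value).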

Additional observations from a re-analysis of the deposited data

How the results depend on the processing

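Under 12 alternative settings all 108 log2 fold changes of the 9 genes other than MYBL2 were below 0, and 101 stayed on their side of an adjusted p of 0.05, while 7 no longer passed it, all of E2F3. Calls of the 9 at a fold change of 2 numbered 5, between 4 and 6 without one library, and 3 with limma on log2(TPM + 1), where E2F1 and E2F7 fell short. MYBL2 ranged from -2.48 to -2.27, and from -2.42 to -2.31 without one library. Of the 156 values of the 13 partners, 22 no longer passed, and the 2-fold call of LIN37 was lost without the first shCon library, without the first shUBXN1 library and after removal of the GC trend. Without the second shCon library 3 partners were higher, against 7. Over all genes, 4751 were lower and 4727 higher at an adjusted p under 0.05, and 1027 and 1997 at a fold change of 2. The 2-fold counts were 524 and 1028 with limma on log2(TPM + 1), 2435 and 3201 at a fold change of 1.5, and 746 and 1321 with at least 10 counts in every library. Total count scaling moved the median of all genes from 0.016 to 0.10. Without one library, 985 to 1146 genes were lower and 1738 to 2021 higher at a fold change of 2. The deviations of same-numbered libraries of the groups correlated with r = 0.0393 across genes, so no shared replicate effect was visible. This value cannot show whether those libraries were prepared in pairs. With the replicate block the calls were 5023 lower and 5000 higher over all genes and 9 lower among the 9 genes, and no call of these 9 changed. The scarcest members, E2F2 and E2F8, had the largest SE of the 10 genes, and without one library they ranged from -1.64 to -1.22 and from -1.63 to -1.20.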

Other observations

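Among genes that set the activity of the pocket proteins in G1, the share that rose was near that of all genes tested. Of 15 such genes, 14 passed the filter on low counts (CCND2 had at most 1 count), 8 fell (28.2% of all genes tested), 4 rose (28.0% of all genes tested) and the median log2 fold change was -0.26. By the 2-fold call 2 were lower (6.09% of all genes tested) and none higher (11.8%). Inhibitor genes of this list other than CDKN1A and CDKN1B moved in both directions, and the largest change of any inhibitor gene listed was a fall of more than 2-fold. The cyclin-dependent kinase gene CDK4 fell from 265 and 275 CPM to 186 and 189 CPM (log2 fold change -0.52, SE 0.0726, adjusted p = 2.71e-05 in edgeR). CCND1, the cyclin D1 gene, stood at -0.20 (adjusted p = 0.0384), a call lost in 5 of 12 alternative settings, among them those without the first shCon (-0.21), the second shCon (-0.20) or the first shUBXN1 library (-0.13). The inhibitor gene CDKN1A, which encodes p21, rose from 22.8 and 24.4 CPM to 32.2 and 33.4 CPM (log2 fold change 0.48, SE 0.0917, adjusted p = 0.000507 in edgeR). CDKN1B, which encodes p27, had a log2 fold change of 0.25 (adjusted p = 0.0144), and its call was lost in 4 of 12 settings, among them those without the first shCon (0.25), the second shCon (0.25) or the second shUBXN1 library (0.18).

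The lowest log2 fold change among the mitotic target genes was that of KIF11 (-1.52), a spindle motor gene.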
